A study of Rattus norvegicus with 8 samples.

Results

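The integrins described here are 10 subunits that muscle cells and the connective tissue around them carry at their surface: the alpha subunits Itga1, Itga3, Itga5, Itga6, Itga7, Itga8, Itga9 and Itgav, and the beta subunits Itgb1 and Itgb5. Every probe set annotated to 1 of these symbols was taken, which gave 22 of the 31042 probe sets in the deposited table and 10 of its 14217 genes with a symbol. The tissue was the atrial appendage and the ventricular free wall of 13 normal, untreated male Sprague Dawley rats of 225 to 275 g, and the methods of the study place both on the left side. There were 4 pools of atrial and 4 pools of ventricular RNA, with 1 array per pool, called atrium 1 to 4 and ventricle 1 to 4 below. A replicate is therefore a pool of several hearts, which rats entered which pool is not given in the sources used here, and the age of the animals is given only as their weight. Each value is a log2 signal intensity, so that a difference of 1 is a doubling, and each difference is the atrial mean minus the ventricular mean.

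An integrin is a pair of 1 alpha and 1 beta chain that crosses the cell membrane. Outside the cell the pair binds the extracellular matrix or a counter-receptor on a neighbouring cell, and inside the cell the short beta tail is held by talin and kindlin, which tie it to actin. The alpha chain largely sets the ligand. Pairs of Itgb1 with Itga1 bind collagens, those with Itga3, Itga6 or Itga7 bind laminins, those with Itga5 or Itga8 bind proteins with an RGD motif such as fibronectin, and those with Itga9 bind tenascin-C and VCAM1. Itgav pairs with several beta chains, among them Itgb5, with which it binds vitronectin. In heart muscle the pair of Itga7 and Itgb1 is the main laminin receptor of the mature cardiomyocyte, where it sits at the costameres that couple the contractile apparatus to the basement membrane.

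On the log2 scale the deposited values covered 1.9 to 13.77, and every array had a median of 4.8. Arrays of the same tissue correlated at 0.990 to 0.996 over all probe sets and arrays of different tissues at 0.969 to 0.974. The tissue labels were checked against chamber genes. Sln (sarcolipin, the atrial regulator of the calcium pump) averaged 12.76 in the atria and 4.81 in the ventricles, and Myl7 (the atrial regulatory light chain) 13.25 and 8.53. Myl2, the ventricular regulatory light chain, read 13.23 to 13.30 in the ventricles but 10.48, 4.32, 6.82 and 11.30 in atrium 1 to 4 with probe set 1388200_at, so that atrium 1 and 4 stood apart from atrium 2 and 3. Myl3, the ventricular essential light chain, split them in the same way, at 9.93, 8.06, 7.75 and 10.43 against 12.82 to 13.03 in the ventricles. The dimmer Myl2 probe set 1388293_at read 4.12, 3.94, 4.12 and 4.82 in atrium 1 to 4, where only atrium 4 stood apart. Member calls that change when atrium 1 and 4 are left out together are given with both values.

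Most of the integrins that differed were lower in the atria. Of the 22 probe sets, 10 were lower in the atria, 4 were higher and 8 did not pass, at a limma adjusted p under 0.05 over all probe sets. Over the whole series 20.1% of probe sets were lower and 18.6% were higher. With each gene represented by its probe set of highest mean, Itga1, Itga5, Itga6, Itga7, Itga9 and Itgb1 were lower in the atria (6 of 10), Itgav and Itgb5 were higher (2 of 10), and Itga3 and Itga8 did not pass (2 of 10). In 6 of the 8 omissions of a single array, given below under Itgav, only 1 gene was higher, since the call of Itgav was lost. With the mean of all probe sets of a gene, 5 genes were lower, and Itgb1, at -0.14, did not pass (adjusted p = 0.064). Among all genes 22.5% were lower and 22.5% were higher. The median difference of the 10 genes was -0.27, beside -0.04 for all genes. The arrays of the tissues did not overlap for 14 of the 22 probe sets, with the atria below in 10 and above in 4, whereas 37% of all probe sets had no overlap in either direction. The study set a false discovery rate with the SAM statistic and a fold, and here the same limits, 0.0001 and 1.8 fold, were put on the limma adjusted p. There were then 3 member probe sets, all lower in the atria: 1380236_at of Itga9 and 1383240_at and 1393558_at of Itga6. Of all probe sets 4.51% passed those thresholds.

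**Figure D1:**
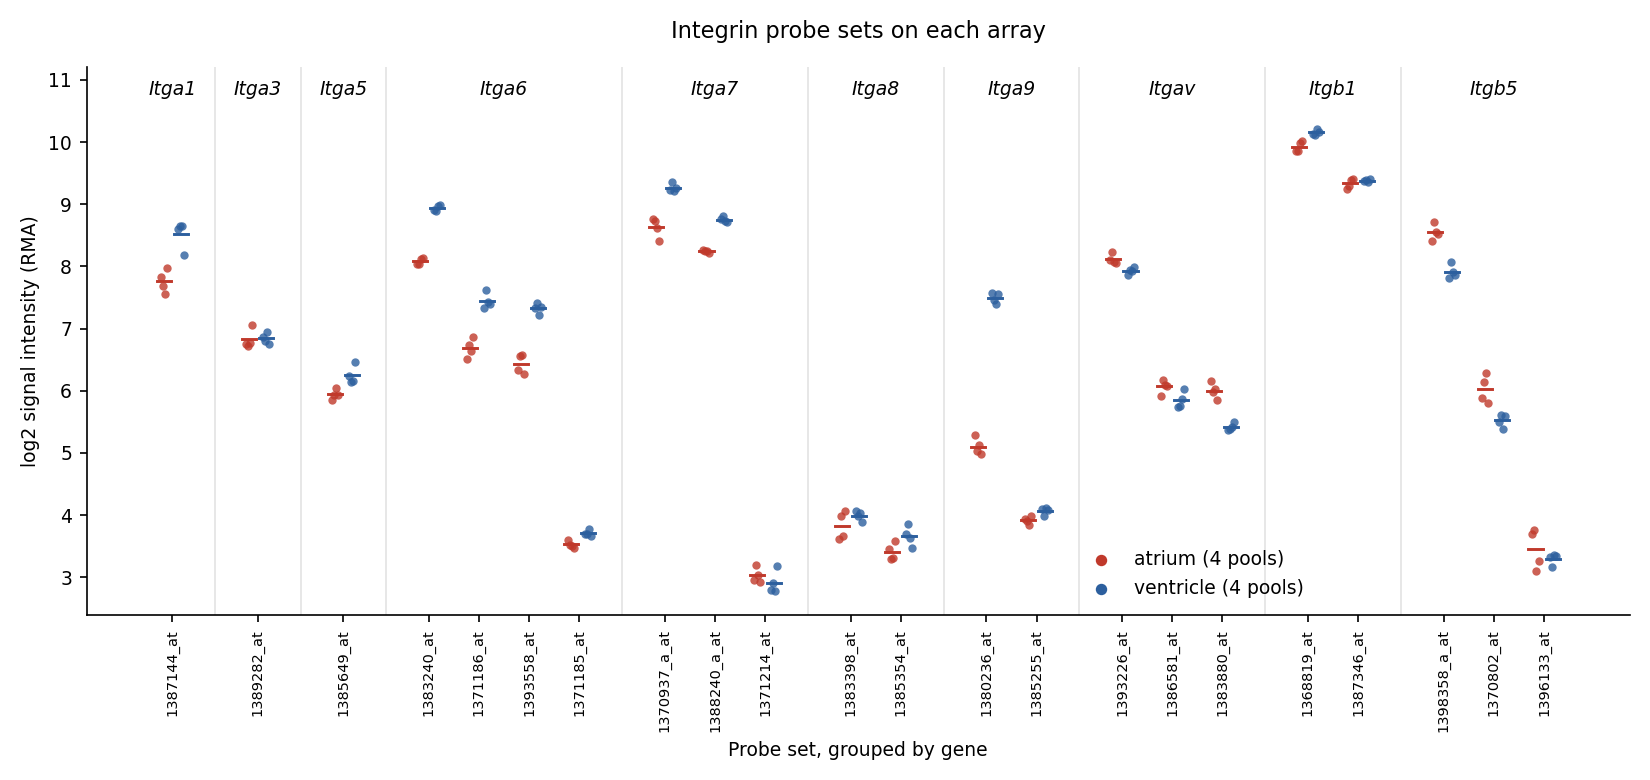
Log2 signal intensity (vertical axis) of each of the 22 integrin probe sets, grouped by gene, with 1 point per pool (red, 4 atrial pools; blue, 4 ventricular pools) and a bar at the mean of each tissue. The points of 1380236_at (Itga9) lie furthest apart, near 5.10 in the atria and 7.50 in the ventricles, and 6 probe sets have a mean under 4 over all arrays.

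The calls were also counted by brightness. Of the 16 with a mean of at least 4, the low end of the intensities, 9 were lower in the atria, 4 were higher and 3 did not pass. Of the 6 dimmer ones, 1371185_at (Itga6), 1371214_at (Itga7), 1383398_at and 1385354_at (Itga8), 1385255_at (Itga9) and 1396133_at (Itgb5), 1 was lower and 5 did not pass. Over all probe sets of any brightness 20.1% were lower and 18.6% higher, and the shares at each brightness were not counted. A dim probe set is not read here as evidence that a gene did not differ.

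**Figure D2:**
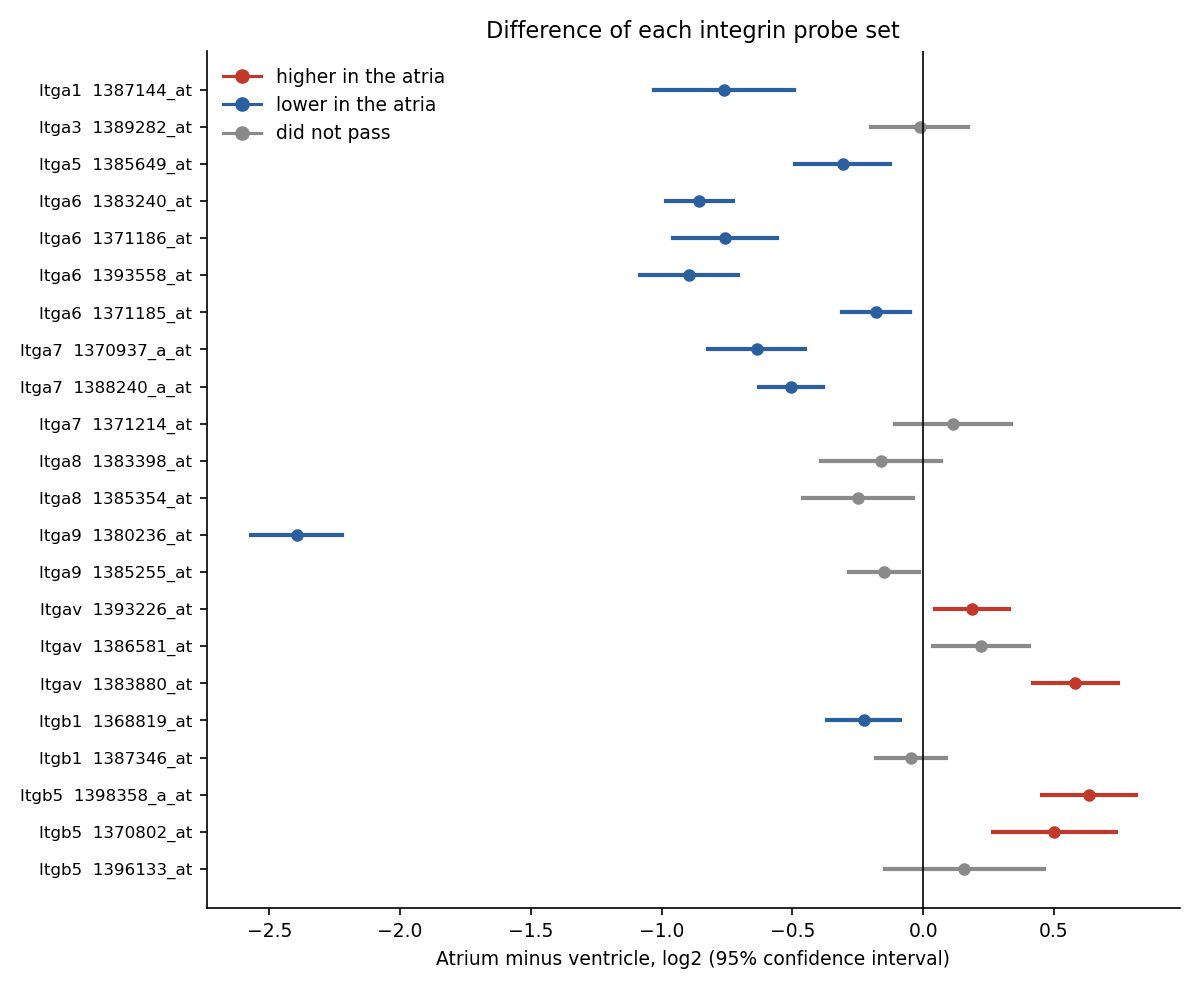
Atrial minus ventricular difference of each integrin probe set on the log2 scale (horizontal axis), with its 95% confidence interval from limma as a bar, in red where higher, in blue where lower and in grey where it did not pass an adjusted p under 0.05. The estimate of 1380236_at (Itga9) lies at -2.40, and the other 21 lie between -0.89 and 0.63.

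Heart tissue holds many cell types, and their markers differed between the chambers. The count of each marker list stands beside 22.5% of all genes in each direction. In whole tissue, fewer cells of a type and less RNA per cell cannot be told apart. Of 10 endothelial markers 8 were lower in the atria, 1 was higher (Vwf, 0.93) and 1 did not pass. Their summed intensity, on the log2 scale, was 11.61 to 11.67 in the atria and 12.10 to 12.25 in the ventricles, and the largest differences were those of the receptors Kdr (-1.34) and Tie1 (-1.12). All 8 pericyte markers were lower, with a sum of 10.15 to 10.34 in the atria and 11.12 to 11.21 in the ventricles, led by Vtn (-1.30) and Rgs5 (-1.22). Of 8 smooth muscle markers 7 were lower, with sums of 11.38 to 11.49 and 11.87 to 11.89, led by Myh11 (-1.13) and Tagln (-0.91). The brightest of the 8 was Des (desmin), at 10.73 in the atria and 11.06 in the ventricles (-0.34), and the sums rest largely on it. Fibroblast markers went the other way. Of 12, 9 were higher in the atria and none was lower, with sums of 14.18 to 14.36 against 13.86 to 14.04, led by Mfap5 (0.85) and Col1a2 (0.59).

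Markers of the outer lining of the heart had the largest median difference of the 9 cell type lists, at 3.28. Of 8 mesothelial and epicardial markers 7 were higher in the atria, among them Upk1b (5.04) and Msln (4.40). Wt1 was lower (-0.38), which did not hold without ventricle 3 or ventricle 4, when 0 were lower. The sum of the list was 10.13 to 11.06 in the atria and 7.59 to 7.75 in the ventricles. Of 11 leukocyte markers 5 were lower, led by Cd74 (-0.95) and Ptprc (-0.78), and 3 were higher (Cd163, C1qa and C1qb, 0.36 to 0.49), with sums of 11.05 to 11.38 and 11.66 to 11.82. Without atrium 2, ventricle 1 or ventricle 4, 3 leukocyte markers were lower, and without both atrium 1 and 4, or after quantile normalization, 1 was higher. Schwann cell and neuron markers had 4 of 8 higher, led by Mbp (2.92) and S100b (2.06), and Sox10 lower (-0.59), with sums of 8.69 to 8.83 against 7.36 to 7.50. Of 7 adipocyte markers 4 were higher, among them Pck1 (3.28) and Adipoq (3.23). Their sum, 12.07 to 12.97 in the atria, overlapped the 12.55 to 12.66 of the ventricles. Lpl was lower (-0.40), at 11.56 in the atria and 11.96 in the ventricles, and made up most of the ventricular sum. Cardiomyocyte markers had a median difference of -0.11. Of these, Tnni3 averaged 12.79 in both tissues and Myh6 13.10 in both, near the highest deposited value of 13.77. The study thinks that its very abundant ANF transcript saturated the probes, and saturation of these markers was not tested. The sum was 15.15 to 15.26 in the atria and 15.29 to 15.34 in the ventricles, with 3 of 7 markers lower and 1 higher. Pln (phospholamban, -0.52), Mybpc3 (-0.28) and Tnnt2 (-0.18) were lower, Ryr2 (the calcium release channel, 0.23) was higher and Ttn, at -0.11, did not pass. Without atrium 2 or atrium 3, 0 were higher, and without both atrium 1 and 4, 1 was lower. The part of these markers in the integrin differences was not tested.

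**Figure D3:**
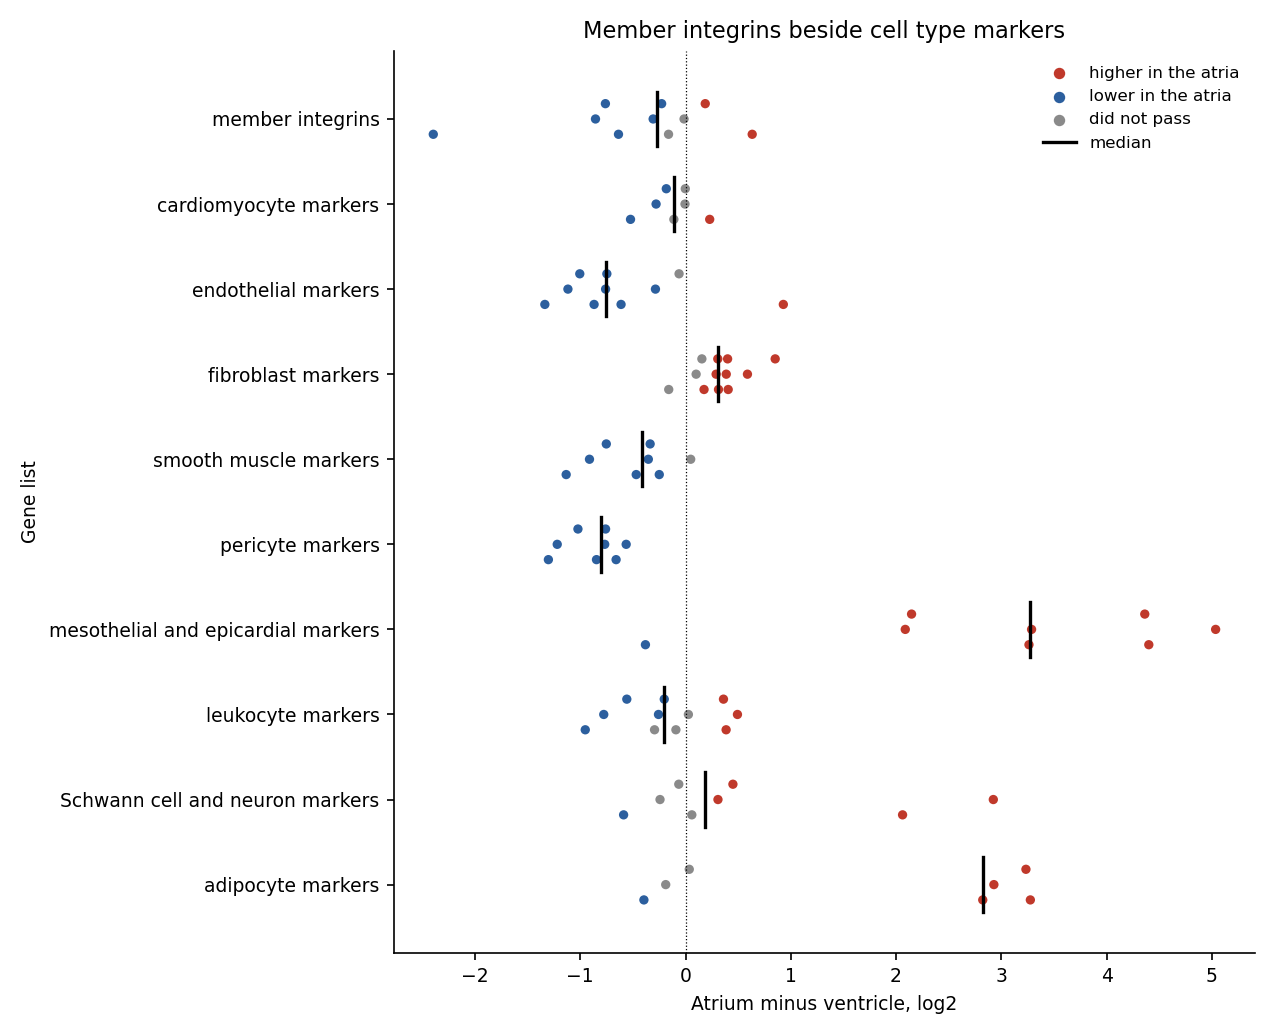
Atrial minus ventricular difference on the log2 scale (horizontal axis) of the 10 member genes in the top row and of the genes of 9 cell type marker lists below it, 1 point per gene by its probe set of highest mean, with a black bar at the median of each list. Red points were higher in the atria, blue points lower, and grey points did not pass. The median was -0.81 for pericyte, -0.75 for endothelial, 0.31 for fibroblast and 3.28 for mesothelial markers.

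Itga9, the alpha chain that binds tenascin-C and VCAM1 and is known from smooth muscle and lymphatic endothelium, had the largest difference of the 10 genes. Probe set 1380236_at read 5.29, 5.02, 5.12 and 4.98 in atrium 1 to 4 and 7.58, 7.46, 7.40 and 7.56 in ventricle 1 to 4. Every atrial pool lay below every ventricular pool by more than the spread within either tissue. The means were 5.10 ± 0.14 in the atria and 7.50 ± 0.08 in the ventricles (SD, n = 4 each). The difference was -2.40 ± 0.08 (SE), which is 5.26 fold lower in the atria, at a limma adjusted p of 9.1e-09. From the most strongly lower gene, Itga9 was number 27 of 14217. In 17 other settings the difference was between -2.46 and -2.35 and passed in each.

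The other Itga9 probe set gave a much smaller difference. Probe set 1385255_at read 3.95, 3.91, 3.85 and 3.98 in the atria and 4.10, 3.98, 4.12 and 4.09 in the ventricles, a range in which atrium 4 overlapped ventricle 2. Its difference of -0.15 did not pass (limma adjusted p = 0.073), although it passed with the SAM statistic (0.016). Between the Itga9 probe sets the differences themselves were apart by -2.25, with a 95% interval of -2.47 to -2.02. Over the 70 ways to split the 8 arrays, the exact permutation p was 0.0286, the smallest that this design can give, and 0.0572 after Benjamini-Hochberg adjustment over the 18 pairs of probe sets of 1 gene. None of those 18 pairs passed, since the smallest possible p does not reach 0.05 once it is adjusted for 18 pairs of which 9 reach it. How the signal of 1385255_at relates to its transcript was not tested.

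The promoter sequence upstream of 8 of the 10 genes could be looked up in the RefSeq table of build GRCr8, and entries for Itga6 and Itga7 were not among those used here. The window of Itga3 lies inside the annotated span of its gene and those of the other 7 lie outside theirs. To show what lies before the start of genes that went opposite ways, 4 are printed: Itga9 and Itga1, the most strongly lower of the 8, and Itgav and Itgb5, which were higher. Each is the 195 bases from 250 to 56 bases before the start site that the promoter table uses, 5′ to 3′ on the strand of the gene. The annotated genes Itga9 and Itga1 begin upstream of that site, so that their windows end closer to the edge of the gene. The windows lie at chr8:127185039-127185233 (plus) for Itga9, chr2:48545339-48545533 (minus) for Itga1, chr3:89245132-89245326 (plus) for Itgav and chr11:80449429-80449623 (minus) for Itgb5. Capitals mark a GC box (GGGCGG) or an E-box (CANNTG) on either strand.
Itga9: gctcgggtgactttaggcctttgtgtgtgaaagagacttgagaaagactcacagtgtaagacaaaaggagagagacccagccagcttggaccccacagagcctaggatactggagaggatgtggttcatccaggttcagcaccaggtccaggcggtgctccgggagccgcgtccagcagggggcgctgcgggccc
Itga1: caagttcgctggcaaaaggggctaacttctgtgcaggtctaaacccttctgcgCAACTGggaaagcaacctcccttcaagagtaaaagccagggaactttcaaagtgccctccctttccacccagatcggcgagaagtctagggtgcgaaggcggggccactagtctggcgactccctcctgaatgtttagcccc
Itgav: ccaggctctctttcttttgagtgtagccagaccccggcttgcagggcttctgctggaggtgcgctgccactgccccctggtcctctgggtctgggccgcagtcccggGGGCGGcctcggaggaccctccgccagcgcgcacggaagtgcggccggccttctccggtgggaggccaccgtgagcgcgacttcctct
Itgb5: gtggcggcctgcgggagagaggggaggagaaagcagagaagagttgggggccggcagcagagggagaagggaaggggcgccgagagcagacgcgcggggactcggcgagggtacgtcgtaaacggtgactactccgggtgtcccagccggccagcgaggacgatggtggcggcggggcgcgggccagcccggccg

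Bases G and C make up 59.5% of the window of Itga9, 55.4% of that of Itga1, 70.3% of that of Itgav and 72.3% of that of Itgb5, beside a median of 50.8% over 33467 promoters. The windows of all 8 members lie between 52.8% and 72.3%. The GC box was found in 4 of the 8 (Itga3, Itga5, Itgav and Itgb1) and in 23.4% of all promoters. The E-box was found in 3 (Itga1, Itga3 and Itga5) and in 57% of all. The M-CAT motif CATTCC was found in 2 (Itga3 and Itgb1) and in 9.53% of all. No member window held TATAAA or AGATAA, which were in 9.76% and 8.37% of all promoters. Both strands were searched for each motif, and no 2 of the 5 can match the same 6 letters. A match is a run of letters and not a known site.

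Of the laminin-binding chains, Itga6 and Itga7 were lower in the atria and Itga3 did not pass. Itga6 pairs with Itgb1 in many tissues and with Itgb4 in epithelia. Its brightest probe set, 1383240_at, read 8.04, 8.04, 8.12 and 8.14 in the atria and 8.91, 8.89, 8.97 and 8.98 in the ventricles. The 4 values of each tissue fell within 0.1 of each other, and the tissues did not overlap. The difference was -0.86 ± 0.06 (SE), or 1.81 fold lower, at a limma adjusted p of 1.3e-06. Probe set 1393558_at read 6.33, 6.56, 6.57 and 6.26 in the atria and 7.33, 7.41, 7.21 and 7.35 in the ventricles, a difference of -0.89 (limma adjusted p = 1.5e-05). Probe set 1371186_at read 6.51, 6.74, 6.64 and 6.87 in the atria and 7.34, 7.62, 7.43 and 7.40 in the ventricles, a difference of -0.76 (7.3e-05). So 3 probe sets gave similar differences without overlap, and their differences from each other were between -0.10 and 0.14 with exact permutation p of 0.257 to 0.743.

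The dim Itga6 probe set gave a call that few other settings kept. With 1371185_at the atria read 3.61, 3.53, 3.50 and 3.48 and the ventricles 3.70, 3.70, 3.77 and 3.66. The tissues did not overlap, but the difference was only -0.18 (limma adjusted p = 0.033). It passed in 4 of 16 other settings, and without any 1 of atrium 2, 3 and 4 or ventricle 1, 2 and 3 the adjusted p was 0.058 to 0.089. Without both atrium 1 and 4 the difference was -0.19 (0.054), and with a block by the pool numbers of the first supplementary table the adjusted p was 0.053.

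Itga7, the laminin receptor chain of mature muscle, was lower in the atria with both of its bright probe sets. Probe set 1370937_a_at read 8.76, 8.74, 8.61 and 8.41 in the atria and 9.23, 9.36, 9.21 and 9.26 in the ventricles. Atrium 4 was the lowest of the atrial pools, and the highest atrial pool was still below the lowest ventricular pool. The difference was -0.64 ± 0.08 (SE), or 1.55 fold lower, at a limma adjusted p of 0.00016. With 1388240_a_at the atria read 8.26, 8.25, 8.25 and 8.22 and the ventricles 8.76, 8.81, 8.72 and 8.71, a difference of -0.51 ± 0.05 (3.8e-05). Names that end in a_at mark probe sets that match several transcripts of 1 gene. The differences of these 2 probe sets were apart by -0.13, with a 95% interval of -0.32 to 0.05 (exact permutation p = 0.143). Probe set 1371214_at, which is annotated with the same sequence record as 1370937_a_at, was dim, with means of 3.03 in the atria and 2.91 in the ventricles, and its difference of 0.12 did not pass (limma adjusted p = 0.39). In the same pools the cardiomyocyte markers were divided as given above. Pln, Mybpc3 and Tnnt2 were lower, Ryr2 was higher, and Tnni3, Myh6 and Ttn did not pass.

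Itga3, a laminin receptor chain best known from epithelia, had 1 probe set, 1389282_at. The atria read 6.75, 6.72, 6.77 and 7.06 and the ventricles 6.86, 6.81, 6.94 and 6.76. Atrium 4 was the highest of all 8 arrays, and the other 3 atrial pools overlapped only the lowest ventricular pool. The difference was -0.01, with a 95% interval of -0.20 to 0.17, and did not pass (limma adjusted p = 0.91). Without atrium 4 it was -0.09 (0.27).

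Itga1, whose pair with Itgb1 binds collagens including the type IV collagen of basement membranes, was lower in the atria. Its 1 probe set, 1387144_at, read 7.83, 7.68, 7.55 and 7.97 in the atria and 8.61, 8.65, 8.64 and 8.18 in the ventricles. Ventricle 4 lay well below the other 3 ventricular pools and still above every atrial pool. The means were 7.76 ± 0.18 and 8.52 ± 0.23 (SD, n = 4 each), with a difference of -0.76 ± 0.12 (SE), or 1.69 fold, at a limma adjusted p of 0.00059. Without ventricle 4 the difference was -0.87 (0.00013), and without both atrium 1 and 4 it was -0.90 (0.00082).

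Of the chains that bind RGD proteins, Itga5 was lower in the atria, Itgav was higher and Itga8 did not pass. Itga5, the fibronectin receptor chain, had 1 probe set, 1385649_at, which read 5.86, 5.94, 6.05 and 5.93 in the atria and 6.24, 6.15, 6.15 and 6.46 in the ventricles. The highest atrial pool and the lowest ventricular pools were 0.1 apart, without overlap. The difference was -0.31 ± 0.08 (SE), or 1.24 fold, at a limma adjusted p of 0.013. It did not pass without both atrium 1 and 4 (-0.26, adjusted p = 0.073).

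Itga8, a chain of mesenchymal and smooth muscle cells that binds nephronectin and other RGD proteins, was dim on both of its probe sets. Probe set 1383398_at read 3.61, 3.98, 3.66 and 4.06 in the atria and 4.06, 3.98, 4.03 and 3.88 in the ventricles. The tissues overlapped, and the difference of -0.16 did not pass (limma adjusted p = 0.24). With 1385354_at the atria read 3.46, 3.29, 3.30 and 3.59 and the ventricles 3.69, 3.85, 3.63 and 3.47, with atrium 4 above ventricle 4. Its difference of -0.25 missed the threshold (adjusted p = 0.061) and passed without atrium 4 (-0.31, 0.022), without ventricle 4 (-0.31, 0.027) and without both atrium 1 and 4 (-0.36, 0.022). It also passed with the SAM statistic (0.017).

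Itgav, the alpha chain that pairs with Itgb5 and with Itgb1, was higher in the atria with 2 of its 3 probe sets. With 1383880_at the atria read 6.16, 5.97, 6.02 and 5.85 and the ventricles 5.38, 5.39, 5.41 and 5.50. The tissues were clearly apart, by 0.58 ± 0.07 (SE), at a limma adjusted p of 0.00012. Probe set 1393226_at, which has the highest mean, read 8.10, 8.24, 8.06 and 8.05 in the atria and 7.86, 7.93, 7.92 and 7.99 in the ventricles. There was no overlap, but the lowest atrial and the highest ventricular pool were less than 0.1 apart, and the difference was 0.19 (limma adjusted p = 0.041). That call was not stable. It did not pass without atrium 1 (0.067), atrium 2 (0.11), atrium 3 (0.056), ventricle 1 (0.11), ventricle 2 (0.074) or ventricle 3 (0.08), nor after quantile (0.17) or cyclic loess normalization (0.12), nor with a block by the pool numbers of the first supplementary table (0.052).

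For 1386581_at the atria read 5.92, 6.18, 6.10 and 6.08 and the ventricles 5.74, 5.75, 5.87 and 6.03, so that ventricle 4 lay above atrium 1. The difference of 0.22 missed the threshold (limma adjusted p = 0.055) and passed in 6 of 17 other settings. It passed without atrium 1 (0.27, 0.031), without ventricle 4 (0.28, 0.021) and without both atrium 1 and 4 (0.29, 0.038). It also passed with the SAM statistic (0.015), with the dimmest 40% left out (0.043) and with a block by the numbers of the first supplementary table (0.042). The difference with 1383880_at exceeded that with 1393226_at by 0.40 and that with 1386581_at by 0.36, each at an exact permutation p of 0.0286 and an adjusted p of 0.0572. The call with 1383880_at passed in each of 17 other settings.

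Itgb1 is the common beta chain, the partner of all the alpha chains above. Probe set 1368819_at read 9.85, 9.85, 9.99 and 10.02 in the atria and 10.13, 10.12, 10.20 and 10.17 in the ventricles. The highest atrial pool was 0.1 below the lowest ventricular pool, and the difference was -0.23 ± 0.06 (SE), or 1.17 fold, at a limma adjusted p of 0.016. With 1387346_at the atria read 9.25, 9.29, 9.39 and 9.40 and the ventricles 9.37, 9.38, 9.35 and 9.41. These overlapped, and the difference of -0.05 did not pass (0.58), with a 95% interval of -0.18 to 0.09. Atrium 1 and 2 were the lowest of the 8 arrays on both probe sets. The differences on the probe sets were apart by -0.18, with a 95% interval of -0.25 to -0.11 (exact permutation p = 0.0286, adjusted p = 0.0572).

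Itgb5, a partner of Itgav alone, was the member with the largest difference in the other direction. Probe set 1398358_a_at read 8.41, 8.71, 8.56 and 8.51 in the atria and 7.82, 8.06, 7.91 and 7.86 in the ventricles. Atrium 2 and ventricle 2 were the highest of their tissues, and every atrial pool was above every ventricular pool. The means were 8.55 ± 0.13 and 7.91 ± 0.11 (SD, n = 4 each), with a difference of 0.63 ± 0.08 (SE), or 1.55 fold higher, at a limma adjusted p of 0.00013. With 1370802_at the atria read 5.88, 6.14, 6.28 and 5.80 and the ventricles 5.50, 5.62, 5.39 and 5.59, a difference of 0.50 ± 0.11 (0.0037). The dim 1396133_at read 3.70, 3.75, 3.10 and 3.26 in the atria and 3.33, 3.16, 3.36 and 3.34 in the ventricles. There the atrial pools lay on both sides of the ventricular ones, and the difference of 0.16 did not pass (0.39). From the most strongly higher gene, Itgb5 was number 960 of 14217.

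Whether the members differed from one another was tested on the difference between their differences, for all 45 pairs of the 10 genes by their probe sets of highest mean. In 33 pairs the exact permutation p was 0.0286, the smallest that 70 splits can give, with an adjusted p of 0.039 over the 45 pairs. Itga9 was apart from each of the 9 other genes, by -1.54 against Itga6 up to -3.03 against Itgb5. Itgb5 was likewise apart from each of the 9 others, by 0.45 against Itgav with 1393226_at, whose own call was not stable. With 1383880_at the difference of Itgav was 0.58, beside 0.63 for Itgb5, and that pair was not tested. Itga6, Itga1 and Itga7 could not be separated. The difference of Itga6 minus that of Itga1 was -0.09 (95% interval of -0.48 to 0.29, adjusted p = 0.6), that of Itga6 minus that of Itga7 was -0.22 (-0.50 to 0.07, 0.169), and that of Itga1 minus that of Itga7 was -0.12 (-0.59 to 0.34, 0.509). Those intervals are wide, and such a p does not show that the differences were equal.

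In the middle of the order, Itga5, Itgb1 and Itga8 were not separated either, with exact permutation p of 0.4 to 0.571 for the 3 pairs. Itga3 was not separated from Itga5 (adjusted p = 0.107), Itga8 (0.192) or Itgav (0.192). Itga5 was not separated from Itga7 (0.0734) or Itga1 (0.139), nor Itga8 from Itgav (0.0734). The fibronectin receptor of Itga5 and Itgb1 was also set against the vitronectin receptor of Itgav and Itgb5. The difference of Itgav minus that of Itga5 was 0.49 and that of Itgb5 minus that of Itgb1 was 0.86, and both passed. With the mean of a gene's probe sets in place of the one of highest mean, 30 of the 45 pairs passed.

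**Figure D4:**
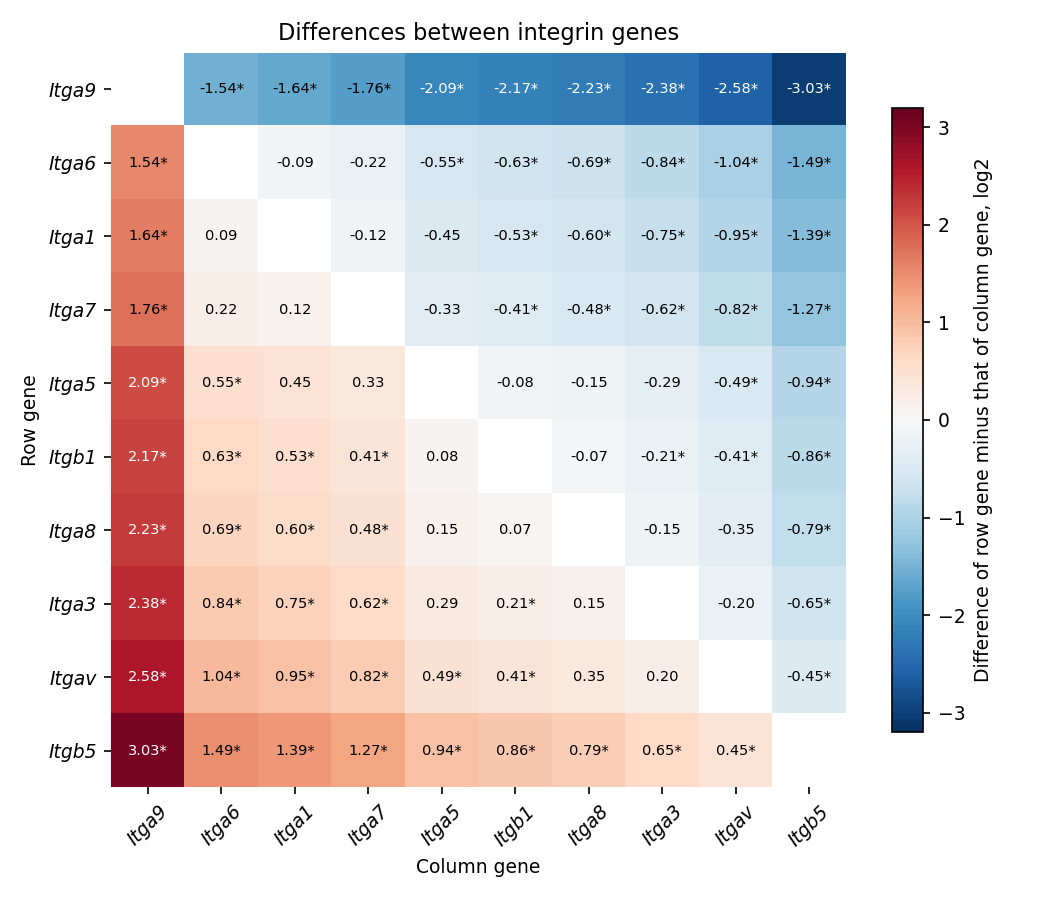
For each pair of the 10 integrin genes, the atrial minus ventricular difference of the row gene minus that of the column gene, on the log2 scale (colour and number), with genes ordered from the most strongly lower to the most strongly higher in the atria. An asterisk marks the 33 of 45 pairs with an exact permutation adjusted p of 0.039. The row of Itga9 runs from -1.54 to -3.03 and the block of Itga6, Itga1 and Itga7 has no asterisk within it.

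Of the other integrin subunits, 12 were measured, 3 were lower in the atria, 2 were higher and 7 did not pass, with a median of -0.12. Beside these counts, 22.5% of all genes were lower and 22.5% were higher. The 3 lower ones were chains of leukocyte integrins. Other leukocyte chains, Itgam (-0.11, limma adjusted p = 0.29), Itgad (-0.14, 0.15) and Itgb7 (-0.15, 0.13), did not pass. Itgal, the alpha chain of LFA-1, read 4.60, 4.60, 4.48 and 4.84 in the atria and 6.24, 6.14, 5.84 and 5.82 in the ventricles, 2.61 fold lower at a limma adjusted p of 4.4e-06. Itgb2, its beta chain, differed by -0.56 (0.00067) and Itgax, another of its partners, by -0.68 (0.001). Itgb2 is also on the leukocyte marker list. The higher ones were Itgb4, the epithelial partner of Itga6, and Itgae, the chain of lymphocytes that binds E-cadherin. Itgb4 read 6.40, 5.88, 6.01 and 6.03 in the atria and 5.26, 5.35, 5.45 and 5.04 in the ventricles, a difference of 0.80 (0.00035), opposite in direction to that of Itga6. Itgae differed by 0.52 (5.3e-05). With the SAM statistic 5 of the 12 were lower. Itgb3, a further partner of Itgav, had means of 5.14 and 5.13 and did not pass (0.97), and Itga2, Itga4, Itga10 and Itgb8 were not analysed here.

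Of 15 laminin and basement membrane genes 9 were lower in the atria, 1 was higher and 5 did not pass, with a median of -0.26, beside 22.5% of all genes in each direction. Of the 9 laminin chains among them 5 were lower, 1 was higher and 3 did not pass. Of the 5, Lama3 was dim, at 3.53 and 3.79 (-0.26, limma adjusted p = 0.011), and Lama4 passed narrowly (-0.16, 0.047). Among the lower genes of the list, the type IV collagens had the largest differences. Col4a2 read 8.96, 9.23, 8.91 and 9.45 in the atria and 10.27, 10.45, 10.46 and 10.28 in the ventricles (-1.23, limma adjusted p = 1.3e-05), and Col4a1, which is bound by the pair of Itga1 and Itgb1, differed by -1.22 (1.3e-05). Among the laminin chains, Lama5 differed by -1.18 (7.9e-07), Lamc1 by -0.39 (0.00084) and Lamb1 by -0.35 (0.0013). Lama2, the alpha chain of the laminin around muscle fibres, had means of 9.43 and 9.41 and did not pass (0.81). Agrn (agrin) and Hspg2 (perlecan), 2 proteoglycans of basement membranes, were lower, at -0.81 (1.7e-05) and -0.69 (3.2e-05). Lamb3, a laminin chain of epithelia, was the exception at 1.70 (2.9e-05), and read 6.80, 6.73, 6.44 and 5.89 in the atria and 4.85, 4.82, 4.51 and 4.89 in the ventricles.

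The other ligands were divided, and 22.5% of all genes passed in each direction. Of 10 further collagens 4 were higher, 3 were lower and 3 did not pass, with a median of -0.09. Col1a2 (0.59, limma adjusted p = 0.00039), Col1a1 (0.41, 0.017) and Col3a1 (0.31, 0.0041), which are also on the fibroblast list, were higher, as was Col5a2 (0.28, 0.024). Col6a3 (-0.38, 0.0036), Col5a1 (-0.29, 0.042, with overlap between the tissues) and Col6a1 (-0.16, 0.044) were lower. Without any 1 array other than atrium 4, 1 collagen was lower in place of 3, and with the SAM statistic 5 were. Of 16 RGD and other matrix ligands 6 were higher, 5 were lower and 5 did not pass, with a median of 0.12.

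Ligands of single members can be set beside their receptors. Vcam1, a ligand of Itga9, read 7.81, 7.83, 7.88 and 7.81 in the atria and 4.87, 4.83, 5.21 and 5.21 in the ventricles, which was 6.97 fold higher in the atria (2.80, limma adjusted p = 1.1e-08) and opposite to Itga9. Tnc (tenascin-C), another, was dim, at 2.97 and 3.32 (-0.35, 0.039). Fn1 (fibronectin), bound by the pair of Itga5 and Itgb1, read 9.58, 9.77, 9.83 and 9.81 in the atria and 8.47, 8.43, 8.84 and 8.65 in the ventricles, a difference of 1.15 (6.9e-06), opposite to Itga5. Vtn (vitronectin), bound by the pair of Itgav and Itgb5, read 6.11, 6.31, 6.48 and 5.83 in the atria and 7.47, 7.49, 7.37 and 7.61 in the ventricles, a difference of -1.30 (1.5e-05), opposite to both of its receptor chains. Ltbp1, which anchors latent TGF-beta in the matrix, differed by 1.39 (1.3e-06), and Tgfb1, whose latent form integrins with Itgav can activate, by -0.95 (4.4e-06). Mfge8, a ligand of the pair of Itgav and Itgb5, differed by 0.43 (0.0014). Adam15, a membrane protease with an RGD motif, differed by -1.01 (3.5e-05). These values are levels of messenger RNA in the same pools and give no measure of binding.

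Inside the cell, genes of the talin, kindlin and ILK group were lower in 6 of 14 cases, higher in 3 and did not pass in 5, with a median of -0.10. Among all genes the share was 22.5% in each direction. Lims2 (PINCH2), the adaptor that joins ILK, read 9.33, 9.02, 9.16 and 9.06 in the atria and 10.25, 10.35, 10.31 and 10.33 in the ventricles, a difference of -1.17 (limma adjusted p = 9.1e-07). Parvb (beta-parvin) differed by -0.84 (2.3e-06), Fermt2 (kindlin-2) by -0.41 (0.00039) and Tln1 (talin) by -0.23 (0.025). Of the related genes, Parvg (gamma-parvin) was dim, at 3.36 and 3.84, and lower (-0.48, 0.0025), and Parva (alpha-parvin) was higher (0.27, 0.0079). Lims1 (PINCH1) had means of 10.00 and 9.98 and did not pass (0.82), and neither did Tln2, the other talin (-0.11, 0.37). Ilk itself differed by -0.10 and did not pass (0.17). Itgb1bp1 (ICAP1), which binds the tail of Itgb1, was higher (0.49, 0.00036), as was Itgb1bp2 (melusin), the muscle protein that binds it (0.30, 0.0034).

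Of 15 focal adhesion kinases and adaptors 6 were lower, 3 were higher and 6 did not pass, with a median of -0.04. The kinase Ptk2 (FAK) differed by -0.22 (limma adjusted p = 0.012) and its relative Ptk2b (PYK2) by 0.67 (0.00083). Ptk2b had low means, 4.54 in the atria and 3.87 in the ventricles. Pxn (paxillin) was lower (-0.30, 0.0015) and Tgfb1i1 (HIC-5), of the paxillin family, was higher (0.63, 0.00017). Fyn, a kinase of the Src family, differed by -0.80 (1e-05) and the adaptor Git1 by -0.61 (2.4e-05). Of 18 actin linkers 5 were lower, 4 were higher and 9 did not pass, with a median of -0.05. For both lists the share of all genes to set beside the counts is 22.5% in each direction. The tensins, which bind the beta tail and actin, were divided, with Tns2 (-0.57, 7.4e-05) and Tns1 (-0.52, 7.2e-05) lower and Tns3 (0.67, 3.1e-05) higher. Csrp3 (muscle LIM protein) was higher (0.55, 7e-05), and Vcl (vinculin) had means of 9.99 and 9.96 and did not pass (0.81).

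Of 14 membrane proteins that associate with integrins, 6 were higher, 2 were lower and 6 did not pass, with a median of 0.09. Over all genes 22.5% were higher and 22.5% were lower. Cd82, a tetraspanin, read 7.37, 7.12, 6.96 and 6.88 in the atria and 5.66, 5.75, 5.77 and 5.67 in the ventricles, a difference of 1.37 (limma adjusted p = 1.9e-06). Sdc4 (syndecan-4), a coreceptor for fibronectin, differed by 0.71 (7.2e-05), Cd44, the hyaluronan receptor, by 0.66 (8.5e-06), Cav3, the caveolin of muscle, by 0.52 (6.6e-05), and the tetraspanin Cd9 by 0.48 (0.00026). Cd36 (-0.69, 2.3e-05) and Cav1 (-0.27, 0.0082), both abundant in capillary endothelium, were lower. Cd151, the tetraspanin that binds the laminin receptor chains Itga3, Itga6 and Itga7, had means of 9.54 and 9.48 and did not pass (0.4).

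**Figure D5:**
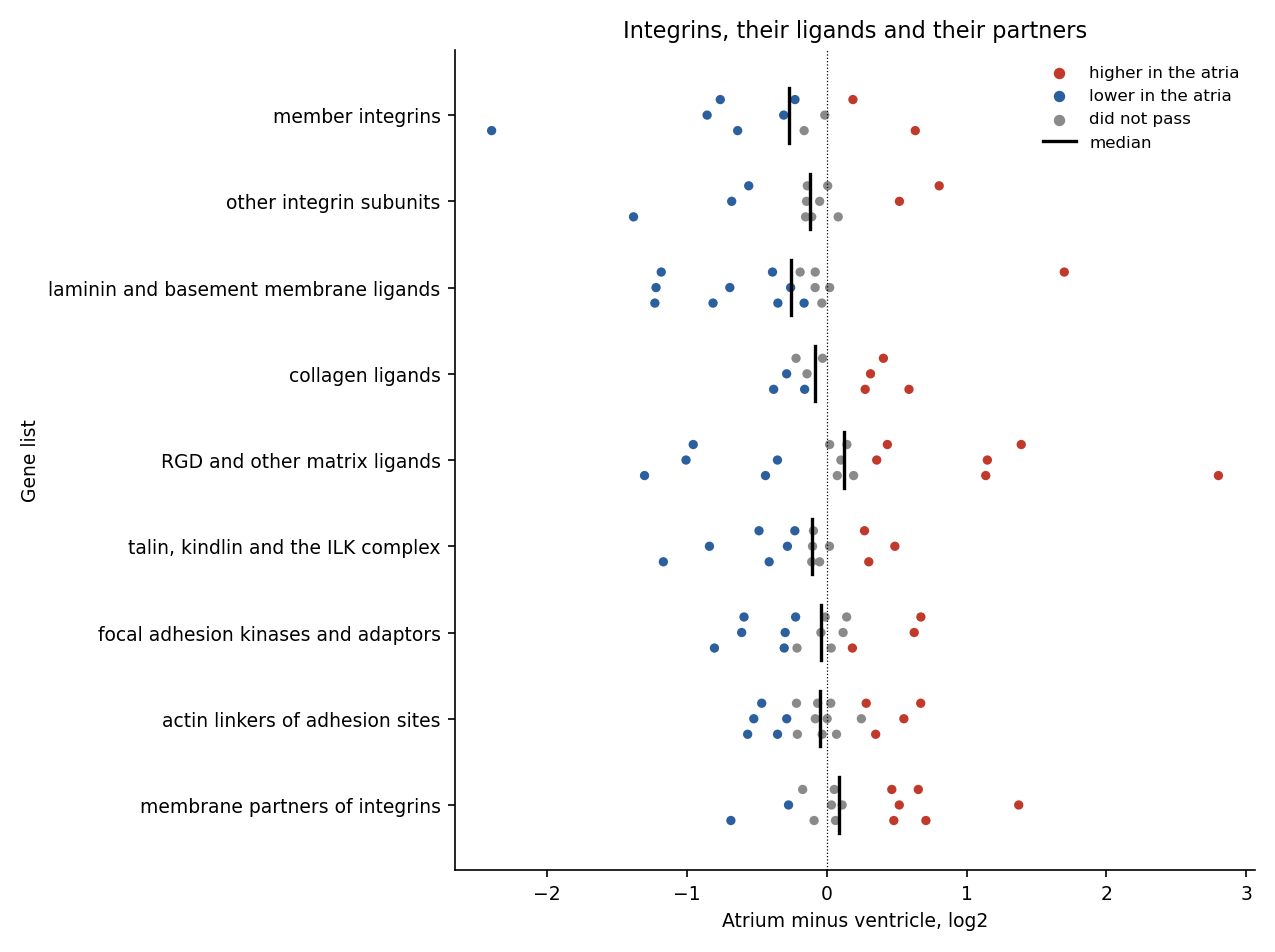
Atrial minus ventricular difference on the log2 scale (horizontal axis) of the 10 member genes in the top row and of the genes of 8 lists of related genes below it, 1 point per gene by its probe set of highest mean, in red where higher, in blue where lower and in grey where it did not pass, with a black bar at the median of each list. The medians run from -0.27 for the members and -0.26 for the laminin and basement membrane ligands to 0.12 for the RGD and other matrix ligands.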

How the data were processed

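RNA of 4 pools each of atrial appendage and ventricular free wall was labelled from 10 µg of total RNA, and each pool was hybridised to 1 Affymetrix rat array. The deposited values are log2 intensities that the authors obtained by RMA, whose version is not given in the sources used here. They were used as deposited, without further scaling. No depth applies to arrays, and the precision is limited by 4 pools per tissue, whose SD had a median of 0.117 for atrial and 0.0986 for ventricular pools. All p-values measure the spread between these pools.

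Probe sets were named from the platform annotation: 20826 carry 1 symbol, 436 several genes and 9780 none. The gene ID of 20758 was found in the RefSeq gene table and 0 symbols changed. The test was limma (version 3.58.1, under R 4.3.3) over all 31042 probe sets with Benjamini-Hochberg adjustment, at an adjusted p under 0.05, and p-values printed for single genes come from this fit. For 14217 genes, the probe set of highest mean stood for the gene. Pairs of probe sets or genes were compared with two-sided exact permutation tests. Plots were made in matplotlib 3.10.9 under Python 3.11.15.

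The members, the lists and the tests were chosen with earlier results of these data known. The text names every member probe set, those other integrin subunits that passed, of each integrin list the 2 genes with the largest differences in each direction among those that passed without overlap between the tissues, of each cell type list 2 genes by the size of the difference with its defining markers, and known partners and ligands of members. Other genes, such as those that go against a list, were named after their values were seen. On simulated data with 31042 probe sets, limma recovered 7 of 50 changed by 0.25 (log2), 37 of 50 by 0.5, 48 of 50 by 1 and 50 of 50 by 2, and called 5 of 30842 unchanged. Far fewer probe sets were changed there than were called in the real data (20.1% lower and 18.6% higher). These counts therefore do not carry over to the real data. Alternatives were the SAM statistic, written anew, a trended and robust variance, replicate blocks, arrays centred on the median, quantile and cyclic loess normalization, the dimmest 40% left out, the thresholds of the study, the mean of a gene's probe sets, and each array left out in turn. The omission of atrium 1 and 4 together was also run, and quantile normalization of the pairs of probe sets and the pair tests without single arrays were chosen after seeing the data.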

Additional observations from a re-analysis of the deposited data

Results flagged for a closer look

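In 4 of 44 groups of 4 pools, 1 pool of a member probe set stood further from the rest than Dixon's 95% critical value allows, where chance gives about 1 in 20. For Itga1, ventricle 4 read 8.18 beside 8.61 to 8.65 in the other ventricular pools. For Itga3, atrium 4 read 7.06 beside 6.72 to 6.77. For Itga7 with 1388240_a_at, atrium 4 read 8.22 beside 8.25 to 8.26. For Itgb5 with the dim 1396133_at, ventricle 2 read 3.16 beside 3.33 to 3.36. No call of these 4 probe sets changed in any of the settings that left an array out. The cause of each was not tested.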

How the results depend on the processing

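No member difference changed direction where it was called. Of 368 member differences in other settings, 334 stayed on their side of the threshold, 23 no longer passed, 11 came to pass and 0 reversed a call. The SAM statistic, the trended variance, the replicate blocks and the omission of dim probe sets cannot change the sign of a difference. Of the 334, 4 changed sign, all of them of Itga3, which passed in no setting (0.00 to 0.02 without atrium 1, 2 or 3 or ventricle 3). At the thresholds of the study 0 member probe sets were higher and 3 were lower in the atria, in place of 4 and 10. The limit of these arrays is signal over background, which the 6 probe sets with a mean under 4 approach. The replicate numbers of the labels did not pair the pools: residuals of pools with the same number correlated at -0.188 to 0.155, and 2 of 4 atrial pools correlated best with their own number. A replicate block by those numbers lost the calls of Itga6 1371185_at (adjusted p = 0.073) and Itgav 1393226_at (0.078). The first supplementary table of the study orders 2 atrial pools differently. With its numbers the correlations were 0.134 to 0.278, and pools of different numbers correlated at up to 0.061. All 4 atrial pools then correlated best with their own number. The replicate block by these numbers lost the same calls (0.053 and 0.052) and gained Itgav 1386581_at (0.042). The main fit and the permutation tests were run without pairing the pools. Cyclic loess normalization moved the median of all probe sets from -0.05 to -0.004, and with it and with quantile normalization the same 2 calls were lost. Of 646 list counts, 594 stayed within 1.5 times the main count and 52 did not. Pairs of genes passed in 32 of 45 cases after quantile normalization, and pairs of probe sets in 0 of 18. Without single arrays, which was added after seeing the data, 28 to 33 of the 45 pairs of genes and 0 of the 18 pairs of probe sets passed.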
